A study of Homo sapiens with 8 samples.

Results

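The ID genes and the E protein genes are 7 genes of 22554 in the deposited tables, ID1, ID2, ID3, ID4, TCF3, TCF4 and TCF12, chosen by name. All 7 had enough reads to enter the gene test, as did 15432 genes in all. The set was put together after ID1, ID3 and ID4 had been seen to fall in these same libraries, so the differences between groups given for the 7 genes are a description and carry no test of their own. The study compared cultures of SKOV3, an established human ovarian carcinoma line, by sequencing of stranded mRNA libraries. Low-density lipoprotein (LDL), the blood particle that delivers cholesterol to cells, was given to 4 samples for 48 h at 50 µg/mL, and 4 control samples received ordinary medium. The line was kept in McCoy's 5A medium with 10% fetal bovine serum, which brings lipoproteins of its own, and no other treatment is named. The title of the study asks about LDL and metastasis through FOXQ1, and the ID and E protein genes are outside that question.

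ID proteins (inhibitors of DNA binding) are small helix-loop-helix proteins that lack the basic stretch with which related factors hold DNA. They pair with E proteins, the widely expressed basic helix-loop-helix factors that bind E-box sites (CANNTG) alone or with tissue-specific partners, and keep them off DNA. ID1, ID2 and ID3 are direct targets of bone morphogenetic protein (BMP) signalling through SMAD proteins, and ID proteins are known for holding cells in a proliferating, undifferentiated state. TCF3 (E2A), TCF4 (E2-2) and TCF12 (HEB) are the E proteins. They are distinct from TCF7L1 and TCF7L2, Wnt pathway factors that were once also called TCF3 and TCF4.

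The stretch before the start of each ID gene is shown because the 4 genes were lower together and textbook control of this family acts on their promoters. The windows are the 250 bases before the start of the RefSeq transcript on GRCh38.p14, written 5′ to 3′ on the gene's strand. They are chr20:31605039-31605288 on the plus strand for ID1, chr2:8681806-8682055 on the plus strand for ID2, chr1:23559502-23559751 on the minus strand for ID3 and chr6:19837120-19837369 on the plus strand for ID4. Capitals mark GTCT and its reverse complement AGAC, the letters of the short SMAD-binding element.
ID1: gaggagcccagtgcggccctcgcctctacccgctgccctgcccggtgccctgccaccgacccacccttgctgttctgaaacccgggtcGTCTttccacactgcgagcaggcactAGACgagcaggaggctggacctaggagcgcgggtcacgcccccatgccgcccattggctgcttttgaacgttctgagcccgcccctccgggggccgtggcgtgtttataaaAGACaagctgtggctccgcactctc
ID2: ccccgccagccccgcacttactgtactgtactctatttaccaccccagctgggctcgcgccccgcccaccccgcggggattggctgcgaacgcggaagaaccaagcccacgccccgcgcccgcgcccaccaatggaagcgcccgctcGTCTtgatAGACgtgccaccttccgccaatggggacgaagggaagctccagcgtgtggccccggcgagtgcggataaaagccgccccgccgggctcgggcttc
ID3: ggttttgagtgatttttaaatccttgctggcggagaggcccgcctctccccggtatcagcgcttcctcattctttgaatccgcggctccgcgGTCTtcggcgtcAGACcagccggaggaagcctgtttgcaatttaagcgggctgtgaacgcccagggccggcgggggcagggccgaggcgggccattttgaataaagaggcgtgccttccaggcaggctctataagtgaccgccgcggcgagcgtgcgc
ID4: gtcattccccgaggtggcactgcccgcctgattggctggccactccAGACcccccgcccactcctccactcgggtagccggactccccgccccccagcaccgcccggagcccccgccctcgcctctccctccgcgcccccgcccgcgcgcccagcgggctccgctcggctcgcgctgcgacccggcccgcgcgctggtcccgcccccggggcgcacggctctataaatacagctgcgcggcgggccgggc

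The ID windows held 3 such matches before ID1, 2 before ID2, 2 before ID3 and 1 before ID4. This short motif was present in 77.5% of all 35116 RefSeq windows of the same length, at a mean of 1.55 matches, so it is common to most genes. On both strands, GGCGCC, the letters of a BMP-responsive element, was in 0 of the 4 ID windows and in 16.4% of all windows. Bases farther from the start were not searched, so the windows cannot tell whether the ID genes carry this element elsewhere. An E-box, CANNTG, was found before ID2 and ID4, in both as CAGCTG, and in 61.8% of all windows. ID1 and ID4 carried TATAAA, 31 and 29 bases before the start, where 10.7% of all windows held it. The 2 matches to it in ID1, 1 on each strand, overlap each other, and an AGAC follows them directly. CCAAT was found 1 time before ID1, 3 times before ID2, 0 times before ID3 and 1 time before ID4, and in 32.0% of all windows. The cyclic AMP element TGACGTCA was in none of the 4 ID windows and in 1.65% of all windows. TCF3 has 1 window, in which none of these 6 motifs was found, while TCF4 has 10 windows and TCF12 has 5, as both genes are transcribed from many starts. Of the 6 motifs, GTCT was the only 1 present in the windows of ID1, ID2, ID3 and ID4 alike.

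ID1 (ENSG00000125968) is a compact gene on chromosome 20 from 31605283 to 31606515, plus strand, in GENCODE release 29 on GRCh38. ID2 (ENSG00000115738) lies on chromosome 2 from 8678845 to 8684453, plus strand. ID3 (ENSG00000117318) lies on chromosome 1 from 23557918 to 23559794, minus strand, and ID4 (ENSG00000172201) on chromosome 6 from 19837386 to 19840684, plus strand. The RefSeq windows of ID2 and ID3 above lie inside these spans, as the GENCODE spans begin farther upstream. Distances of neighbouring genes from a gene start, given below, count from the GENCODE start. The E protein genes are far longer. TCF3 (ENSG00000071564) spans 43316 bases on chromosome 19 from 1609290 to 1652605, TCF4 (ENSG00000196628) 442457 bases on chromosome 18 from 55222331 to 55664787, both on the minus strand. TCF12 (ENSG00000140262) covers 380659 bases of chromosome 15, from 56918623 to 57299281, and runs on the plus strand. GENCODE lists 2 transcripts for ID1, 4 for ID2, 3 for ID3 and 1 for ID4, against 20 for TCF3, 90 for TCF4 and 28 for TCF12. Antisense genes are annotated over ID2, ID4 and TCF4. No gene annotated over any of the 7 matched a row of the count table, and no source used here says whether strand was used in counting.

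The libraries held 37189698 to 44883561 counts in the control group and 34682501 to 36780334 counts in the LDL group, without overlap in depth between the groups. Levels are given in CPM (counts scaled to library size after TMM normalization). Whether the 4 samples of each group came from separate cultures is not stated, so the spread between them may be technical, and the p-values measure that spread alone. Counts of bulk RNA cannot tell fewer cells of a kind from less RNA per cell. The 8 carcinoma markers summed to 5428 to 5847 CPM in control and 5454 to 5977 CPM in LDL samples. ERBB2 was the highest of them, at 2590 ± 133 CPM in control samples (SD, n = 4). None of the 8 was called, and 4 had an unadjusted edgeR p under 0.05. Their log2 fold changes with LDL ran from -0.999 to 0.245, with 5 above and 3 below 0. The immune list summed to 0.901 to 1.49 CPM over the 8 libraries, with PTPRC and ITGAM at 0 counts throughout. The 6 fibroblast markers summed to 386 to 405 CPM in control and 172 to 444 CPM in LDL samples, nearly all of it COL1A1, and the 5 endothelial markers to 3.89 to 5.01 and 2.85 to 5.00 CPM. LDL sample 4 stood apart from the other 7, with a score of -46.1 on principal component 1 where theirs lay between -1.86 and 17.4. Leaving out LDL sample 1 raised the number of genes called over the whole table from 10 to 149, and leaving out LDL sample 4 raised it to 26.

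ID1, the most abundant of the 7 genes and the founding member of the family, had 879, 846, 894 and 928 CPM in control samples 1 to 4. With LDL, samples 1 to 4 had 659, 697, 695 and 752 CPM. Every LDL sample lay below every control sample, and LDL sample 4 came closest to the controls. The LDL level was 0.790 of control (log2 fold change -0.34, SE 0.049, 95% interval -0.44 to -0.24). Of 107 tested genes at least as abundant as ID1 on the CPM scale, ID1 itself had the most negative log2 fold change. ID1 was chosen with this contrast known, so nothing is read from its place. With any 1 library left out its log2 fold change stayed between -0.38, without LDL sample 4, and -0.31, without LDL sample 1.

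ID3 acts with ID1 in growing blood vessels and in early neural tissue. It had 152, 129.6, 149 and 152 CPM in control samples 1 to 4, and 82.6, 84.0, 89.1 and 79.2 CPM in LDL samples 1 to 4. Control sample 2 was the lowest control and still lay well above the LDL samples, which were close to each other. The LDL level was 0.575 of control (log2 fold change -0.80, SE 0.060, 95% interval -0.93 to -0.67). This was the largest drop of the 7. Of the 1985 tested genes at least as abundant as ID3 in CPM, no other had a log2 fold change as low. At any level, 132 tested genes, ID3 included, had a log2 fold change at or below its own. ID3 was chosen with this contrast known, so nothing is read from its place. In each of the 8 fits without 1 library the log2 fold change lay between -0.85 and -0.77, and it was -0.79 without LDL sample 1 and -0.77 without LDL sample 4.

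ID4, a member best known from neural and germ-line stem cells, had 47.9, 46.2, 45.1 and 46.9 CPM in control samples 1 to 4. In LDL samples 1 to 4 it had 31.2, 35.3, 33.2 and 39.0 CPM. The controls were tight and the LDL samples spread more widely below them, with LDL sample 4 again the highest. The LDL level was 0.745 of control (log2 fold change -0.42, SE 0.071, 95% interval -0.57 to -0.27). Without LDL sample 1 the log2 fold change of ID4 was -0.38, and without LDL sample 4 it was -0.49.

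ID2, which also binds the retinoblastoma protein, was the least abundant gene of the 7 by CPM, at 15.9, 14.3, 16.0 and 15.04 CPM in control samples 1 to 4. Its values in LDL samples 1 to 4 were 10.2, 9.39, 11.4 and 12.0 CPM. Again the groups did not overlap, and the LDL level was 0.701 of control (log2 fold change -0.51, SE 0.103, 95% interval -0.73 to -0.29). The log2 fold change of ID2 was -0.49 without LDL sample 1 and -0.57 without LDL sample 4. Its counts, between 323 and 670 per library, were the lowest among the ID genes. Its biological coefficient of variation, the spread between replicates beyond counting noise, was 12.2%, against 5.92% for ID1, 7.02% for ID3 and 7.96% for ID4. The median of the 500 tested genes nearest in level was 12.8% for ID2, 5.99% for ID1, 6.65% for ID3 and 8.05% for ID4. The edgeR estimate of each gene is drawn toward that of genes of like level, so nearness to these medians is partly built in.

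**Figure D1:**
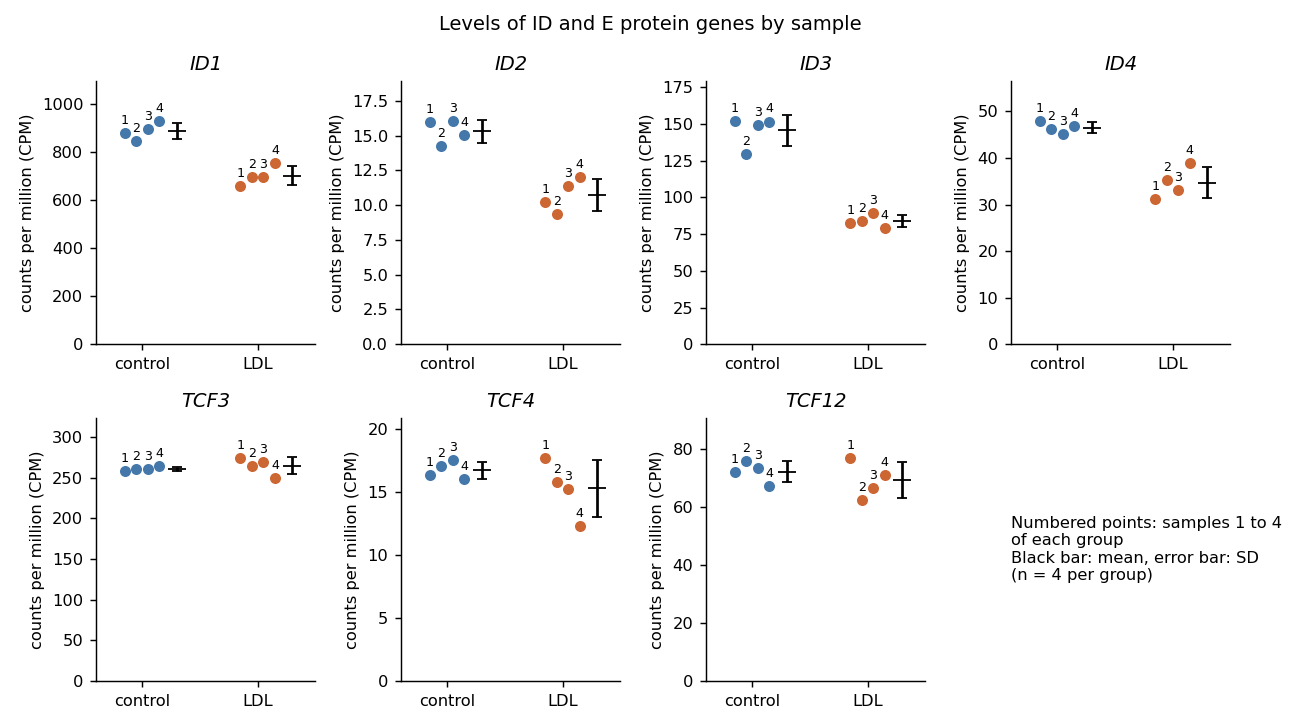
Each panel plots the CPM of 1 gene (vertical axis, from 0) in the 4 control and 4 LDL samples; points carry the sample number, and the black bar and error bar are the mean and SD (n = 4 per group). In the 4 ID panels every LDL point lies below every control point, while in the TCF3, TCF4 and TCF12 panels the groups overlap.

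TCF3, the E protein most studied in lymphocyte development, had 258.2, 260.1, 260.4 and 264.8 CPM in control samples 1 to 4, and LDL samples 1 to 4 had 274.3, 264.9, 269.7 and 249.8 CPM. LDL sample 1 held the highest and LDL sample 4 the lowest of the 8 values, and the groups overlapped. The ratio of LDL to control was 1.01 (log2 fold change 0.02, SE 0.045), with a 95% interval of 0.950 to 1.08. TCF12, an E protein of muscle, bone and T cell precursors, had 72.1, 75.8, 73.6 and 67.2 CPM in control samples 1 to 4, while LDL samples 1 to 4 had 76.9, 62.3, 66.5 and 71.2 CPM. LDL samples 1 and 2 held its highest and lowest values. The LDL to control ratio of TCF12 was 0.960, with a 95% interval of 0.870 to 1.06.

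TCF4, an E protein of the nervous system and of dendritic cells, had 16.3, 17.0, 17.5 and 16.0 CPM in control samples 1 to 4. Its LDL values were 17.7, 15.8, 15.2 and 12.3 CPM, so LDL sample 1 was above all controls and the other 3 LDL samples were below all of them. The ratio was 0.913 with a 95% interval of 0.783 to 1.06 (log2 fold change -0.13, SE 0.105). LDL sample 4 carried much of it, since the log2 fold change was -0.04 without that library and -0.21 without LDL sample 1. The interval of TCF4 leaves room for a drop as large as that of ID1 and for no drop at all, while those of TCF3 and TCF12 do not reach down to the ratio of any ID gene.

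At an adjusted p under 0.05 over all genes, edgeR's quasi-likelihood test called 3 of the 7 genes lower, ID1, ID3 and ID4, and 0.0389% of all 15432 genes. It called 0 of the 7 higher, against 0.0259% of all genes, so that 3 of 7 were called in either direction, against 0.0648%. As the genes were chosen with this contrast known, nothing is read from these counts. All 4 ID genes and 0 of the 3 E protein genes had every LDL sample below every control sample, a pattern found in 1.71% of all tested genes. Groups without overlap in either direction made up 4 of the 7 genes and 3.45% of all tested genes. The median log2 fold change of all tested genes was 0.006.

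The count of 3 changed whichever library was left out. It became 1 without control sample 1, 3 or 4, in fits that called 3, 2 and 5 genes of the whole table against 10 with all samples. It was 2 without control sample 2 (6 genes in the whole table), 1 without LDL sample 2 (3 genes) and 1 without LDL sample 3 (6 genes). The calls over all genes thus dropped along with those of the ID genes. Without LDL sample 1 all 4 ID genes were called, beside 0.653% of all genes, and without LDL sample 4 also all 4, beside 0.0896%. DESeq2, which the submitters' processing notes list, called the 4 ID genes lower too, beside 0.204% of all genes. With the replicate number as a block 1 of the 7 was called lower, beside 0.00648% of all genes, and that gene was ID3. ID3 was called in each of the 8 fits that leave out 1 library. ID1, ID2, ID3 and ID4 were lower under every alternative tried, with log2 fold changes of -0.38 to -0.31, -0.57 to -0.45, -0.85 to -0.76 and -0.49 to -0.38.

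**Figure D2:**
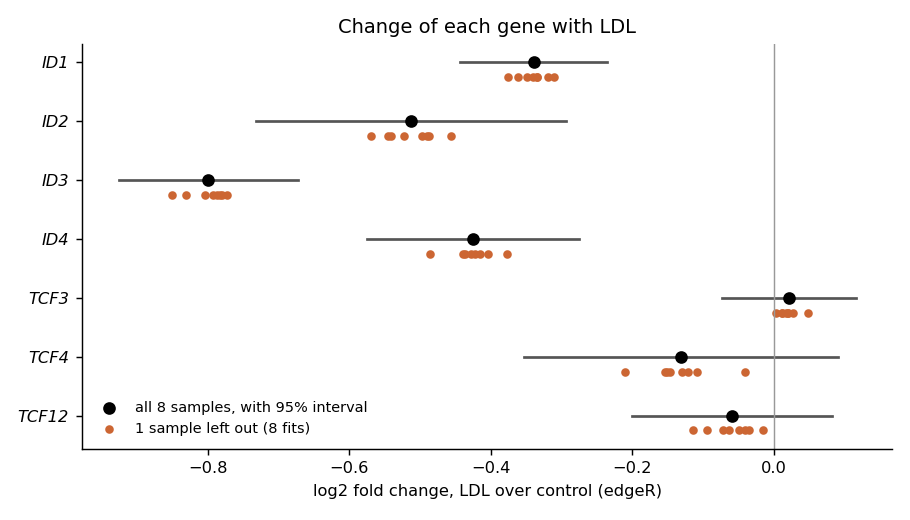
The horizontal axis is the log2 fold change of LDL over control in edgeR for each of the 7 genes; black points are the fit of all 8 samples with its 95% interval, and orange points the 8 fits that leave out 1 sample. ID3 lies farthest to the left at -0.80, the intervals of ID1, ID2 and ID4 also lie below 0, and those of TCF3, TCF4 and TCF12 span 0.

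The ID genes did not keep their proportions to each other. The ratio of ID1 to ID3 counts, which depth and scaling do not touch, was 5.78, 6.53, 5.99 and 6.11 in control samples 1 to 4. In LDL samples 1 to 4 it was 7.97, 8.30, 7.80 and 9.50. It was higher in every LDL library than in every control library, as ID3 was reduced more than ID1. The ratio of ID1 to ID4 counts lay between 18.3 and 19.8 in control and 19.3 and 21.1 in LDL samples, and the groups overlapped. ID1 to ID2 ran from 55.1 to 61.7 and from 61.0 to 74.2, again with overlap. LDL sample 4 had the highest ID1, ID2 and ID4 levels of the LDL group but the lowest ID3 level, and with it the highest ratio of ID1 to ID3. COL1A1, a collagen gene, was at 146 CPM in that library and at 343 to 398 CPM in the other 7, and its part in the ID values was not tested.

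To compare genes with each other, levels per length were taken from the authors' FPKM values, fragments scaled to transcript length and library size. ID1 stood first at 837 FPKM in control and 666 FPKM in LDL samples, rank 51 of all genes in control. ID3 followed at 146 and 84.2 FPKM and TCF3 at 64.3 and 65.1 FPKM, and the 8 values of these 3 genes did not overlap with each other. TCF12 (12.6 FPKM), ID4 (11.4 FPKM) and ID2 (11.1 FPKM) came next in control samples and could not be ordered, since TCF12 ranged from 11.4 to 14.2, ID4 from 10.9 to 11.9 and ID2 from 10.4 to 11.7 FPKM. In LDL samples TCF12 stood at 12.1 FPKM, with its lowest value of 10.4 FPKM above the highest of ID4, 9.59 FPKM. ID4 (8.54 FPKM) and ID2 (7.87 FPKM) still overlapped. TCF4 was last in every sample, between 1.47 and 2.44 FPKM. The FPKM ratios of LDL to control were 0.795 for ID1, 0.709 for ID2, 0.578 for ID3 and 0.748 for ID4.

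Summed per length, the 4 ID genes stood at 1006 ± 41.7 FPKM in control and 767 ± 31.7 FPKM in LDL samples (SD, n = 4 each), and the 3 E protein genes at 79.1 ± 3.20 and 79.0 ± 4.65 FPKM. ID transcripts outnumbered E protein transcripts by 12.3, 11.7, 13.2 and 13.8 to 1 in control samples 1 to 4. In LDL samples 1 to 4 the excess was 8.87, 9.93, 9.19 and 10.98 to 1. All 4 LDL ratios lay below all 4 control ratios, with LDL sample 4 the nearest to the controls. ID1 alone made up 83.3 ± 0.644% of the ID sum in control and 86.9 ± 0.777% in LDL samples, while ID3 went from 14.48 ± 0.629% to 11.01 ± 0.842% (SD, n = 4 each). TCF3 made up 81.3 ± 1.16% and 82.4 ± 1.67% of the E protein sum. These are transcript ratios and say nothing of protein amounts.

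**Figure D3:**
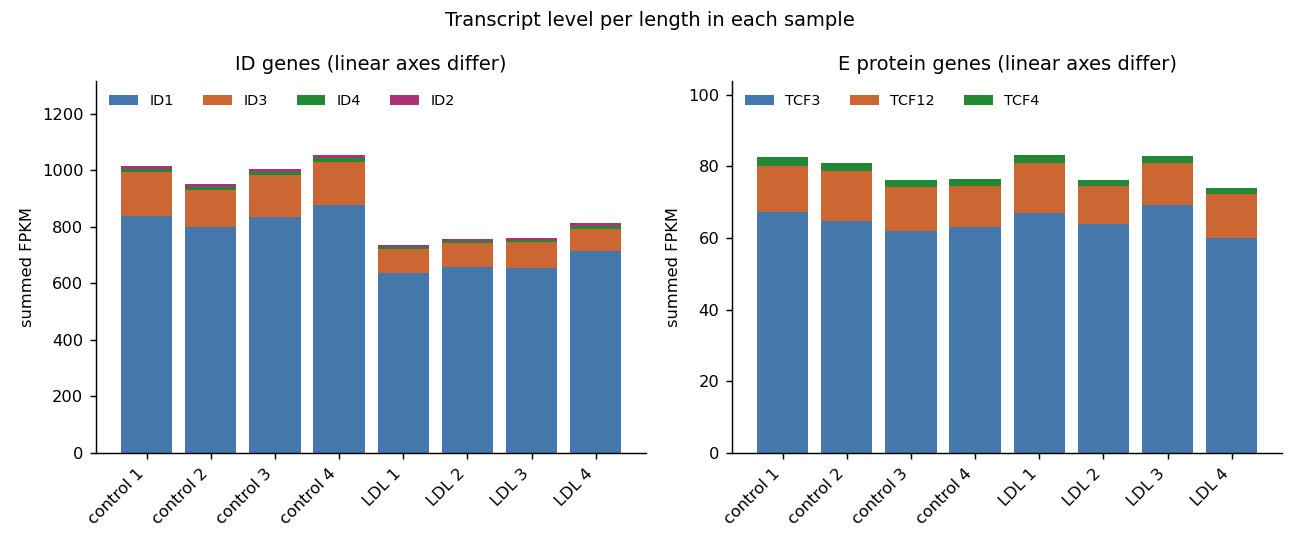
Stacked bars give the FPKM of the ID genes (left) and of the E protein genes (right) in each of the 8 samples, on linear axes from 0 with different ranges. The ID bars are 951 to 1052 FPKM high in control and 737 to 811 in LDL samples, with ID1 the largest piece, while the E protein bars stay between 73.9 and 83.1 FPKM.

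Dividing counts by FPKM gives the transcript length that the deposited values imply, which can move with the estimated mix of isoforms. It was nearly constant for the ID genes, between 1040 and 1068 bases for ID1, 981 and 1007 for ID3, 1357 and 1396 for ID2 and 4001 and 4107 for ID4, the gene with the longest transcript of the 4. For TCF3 it ran from 3839 to 4183 bases and for TCF12 from 5389 to 6006. TCF4, the gene with the most annotated transcripts, ran from 6704 bases in control sample 1 to 8630 in LDL sample 2, a ratio of 1.29 between the extremes. The groups overlapped for each of the 3 E protein genes. The FPKM of TCF4 is thus less tied to its count than the FPKM of the ID genes is.

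Genes with roles around the ID and E proteins were taken from 11 lists of textbook function, 131 genes beside the 7, of which 85 were tested. None was called (edgeR adjusted p over all genes, n = 4 each), against 0.0648% of all tested genes. At that share 0 calls among 85 say little. An unadjusted edgeR p under 0.05 was seen for 6 lower and 4 higher of the 85, against 5.59% of all tested genes. DESeq2 called 0 of the list genes as well.

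None of the other listed genes known to respond to BMP was called. Of 15 listed, 12 were tested, and 4 were above and 8 below 0. Their median log2 fold change was -0.04, with single genes from -1.06 to 0.91, where the 4 ID genes lay singly at -0.80 to -0.34. An unadjusted edgeR p under 0.05 was seen for 4 of the 12, against 5.59% of all tested genes. They were SMAD7, SMAD6, ATOH8 and NOG, and the adjusted p of each was over 0.8. SMAD6, an inhibitory SMAD, had a log2 fold change of -0.17, at 38.0 ± 2.03 CPM without and 33.9 ± 2.90 CPM with LDL (SD, n = 4 each). ATOH8, a transcription factor gene, was at -1.06 (95% interval -1.90 to -0.23), lower than any ID gene, from 1.46 ± 0.340 and 0.695 ± 0.416 CPM. NOG, the gene of the BMP antagonist noggin, lay the other way at 0.91 (95% interval 0.04 to 1.77), from 0.699 ± 0.341 and 1.31 ± 0.591 CPM. SMAD7, the feedback inhibitor of SMAD signalling and the most abundant of them, had 79.8, 72.8, 75.6 and 75.4 CPM in control samples 1 to 4, and its LDL values were 66.9, 72.4, 68.0 and 65.8 CPM. All its LDL values lay below all control values, by a small step (log2 fold change -0.15, SE 0.055, edgeR adjusted p = 0.802). SMAD7 also had the smallest p of the list. BMP receptors and their SMADs were all tested, 10 of 10, with 9 below 0 and a median of -0.09. SMAD4, the partner shared by all SMAD pathways, was the most abundant and had the smallest p, with 118 ± 3.72 CPM without and 108 ± 9.06 CPM with LDL (SD, n = 4 each; edgeR adjusted p = 0.876). Of 12 BMP ligand genes 7 were tested, with a median of -0.02. BMP2 was the highest at 25.35 and 24.98 CPM, and GDF6 had the smallest p (log2 fold change -0.14, edgeR adjusted p = 0.884).

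Among other regulators described for ID promoters, 8 of 9 were tested and 5 were above 0. MYC, the growth regulator that activates ID2, had the highest level and the smallest p, at 106 ± 5.54 CPM without and 119 ± 7.78 CPM with LDL (SD, n = 4 each; log2 fold change 0.17, edgeR adjusted p = 0.781). EGR1, an immediate early factor described at the ID1 promoter and picked out here after its values were seen, had 45.6, 37.9, 43.6 and 48.4 CPM in control samples 1 to 4. The LDL samples had 74.2, 78.2, 105 and 6.63 CPM. LDL samples 1 to 3 were above all controls and LDL sample 4 was far below them (edgeR adjusted p = 0.950). ID1 was lower in all 4 LDL samples, in those with high EGR1 and in the one with low EGR1, and the part of EGR1 in the ID levels was not tested.

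The partners that E proteins and ID proteins bind gave no call either. Of 34 tissue-specific basic helix-loop-helix genes, 16 had no count in any of the 8 libraries, among them MYOD1, MYOG, NEUROD1 and PTF1A. A count of 0 leaves room for 3 counts, which is 0.0668 to 0.0865 CPM depending on the library. Of the 10 tested, TWIST2 was the highest at 36.8 and 37.7 CPM, and TWIST1, a mesenchymal regulator, had the smallest p (12.4 ± 1.44 and 14.4 ± 1.70 CPM, SD, n = 4 each; edgeR adjusted p = 0.879). Their median log2 fold change was 0.04. Per length, TWIST2 at 26.5 FPKM in control lay below TCF3 and above TCF12. The HES, HEY and BHLHE repressors had 7 of 9 tested genes above 0 and a median of 0.13. BHLHE40 was the most abundant at 188 and 191 CPM, and HES6 had the smallest p, with all LDL samples above all controls (log2 fold change 0.36, edgeR adjusted p = 0.822). The zinc finger repressors that share E-boxes with E proteins had a median of 0.04 over 5 genes. SNAI2 was the highest of them at 104 and 106 CPM, and ZEB2 had the smallest p (log2 fold change 0.36, edgeR adjusted p = 0.879).

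Of 12 ID-binding proteins of other families 10 were tested, with a median log2 fold change of 0.003. CAV1, the caveolar coat protein, was the most abundant and had the smallest p, at 479.7 ± 20.3 CPM without and 530.0 ± 42.9 CPM with LDL (SD, n = 4 each; edgeR adjusted p = 0.83). The 8 genes of ID protein turnover, which include the deubiquitinase gene USP1, had a median of -0.03 and lay between -0.09 and 0.09. CDC20, an activator of the anaphase-promoting complex, stood at 495 and 482 CPM, and STUB1 had the smallest p (edgeR adjusted p = 0.884).

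Genes described under E protein or ID control were all below 0 where tested, 5 of 7, with a median of -0.07 and none called. THBS1, the matrix protein thrombospondin that ID1 is described to repress, was the most abundant and had the smallest p. It had 815.6, 674.3, 808.0 and 734.4 CPM in control samples 1 to 4. The LDL values were 607.8, 673.9, 665.3 and 522.5 CPM, with LDL sample 2 just below control sample 2. The log2 fold change of THBS1 was -0.30 (SE 0.085, edgeR adjusted p = 0.662). CDKN1A, the cell cycle inhibitor p21 and an E protein target, stood at 23.0 ± 2.88 and 22.7 ± 2.71 CPM (SD, n = 4 each). CDH1, the gene of E-cadherin that E proteins repress, was at 0.705 ± 0.188 and 0.24 ± 0.325 CPM (SD, n = 4 each; log2 fold change -1.54, edgeR adjusted p = 0.884), a level at which few reads decide. CDKN2A and CDKN2B had 0 counts in all 8 libraries. Of 10 lymphoid targets of TCF3, 5 had no count in any library and 2 were tested, with RAG1 the higher at 1.43 and 1.15 CPM and CD79A of smallest p (edgeR adjusted p = 0.907).

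**Figure D4:**
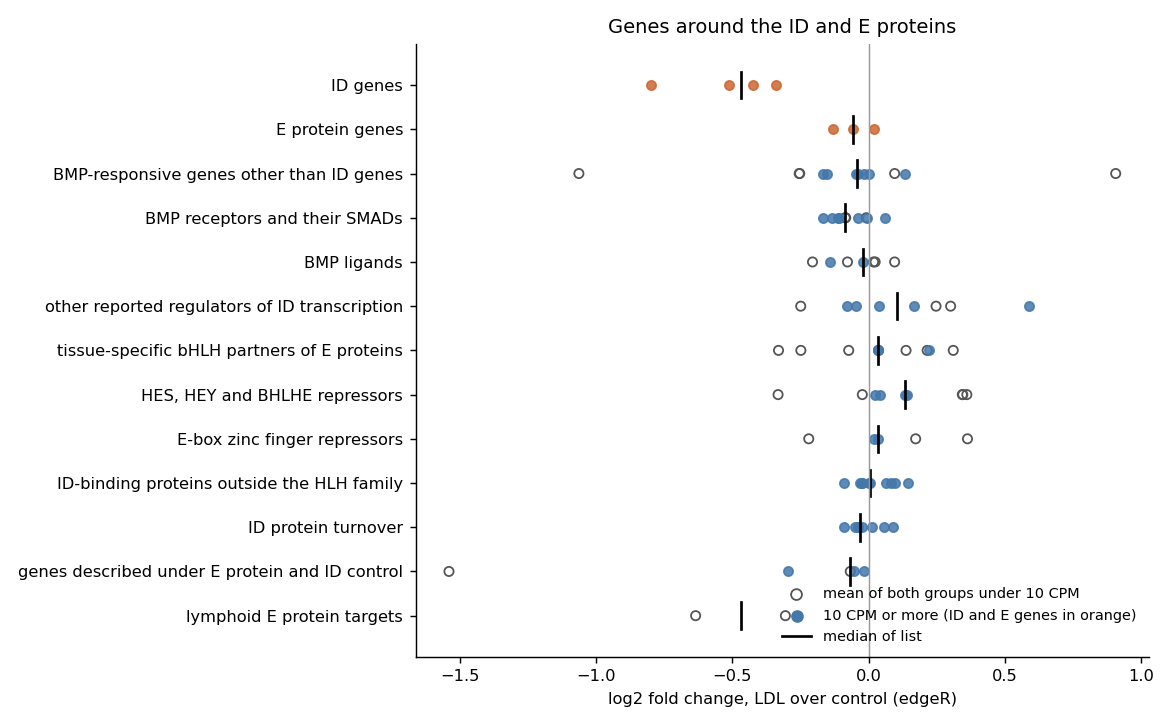
Each row is a gene group and each circle 1 tested gene, placed by its log2 fold change of LDL over control in edgeR; open circles have a mean under 10 CPM, filled circles 10 CPM or more, and the black tick is the median of the group. The 4 ID genes lie singly between -0.80 and -0.34. The medians of the other lists lie between -0.09 and 0.13, except for the lymphoid targets, which rest on 2 genes of low level. Single genes of the lists spread wider, from -1.54 (CDH1) to 0.91 (NOG), both under 10 CPM.

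The question whether genes beside the 7 on the chromosome differed was put to the same fit. Within 250 kb of their starts the table held 45 other genes, of which 35 were tested, with a median log2 fold change of 0.04. Of the 35, edgeR called 0, against 0.0648% of all tested genes. At that share 0 calls among 35 say little. An unadjusted edgeR p under 0.05 was seen for 2 higher and 1 lower, against 5.59% of all tested genes in either direction. DESeq2 also called 0 of the neighbours. Next to ID1, HM13 at 410.2 and 416.2 CPM and BCL2L1 at 342.9 and 340.5 CPM had log2 fold changes of 0.02 and -0.01. Next to ID3, E2F2 was at 0.03 and RPL11 at 0.07. ID2 had RNF144A, 1611 kb away, at -0.11 and KIDINS220, 36.6 kb away, at -0.06, and ID4, which has no tested gene within 250 kb, had RNF144B at -0.004 and MBOAT1 at -0.08. The 95% intervals of these 8 nearest genes all included 0, whereas those of the 4 ID genes lay below 0.

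**Figure D5:**
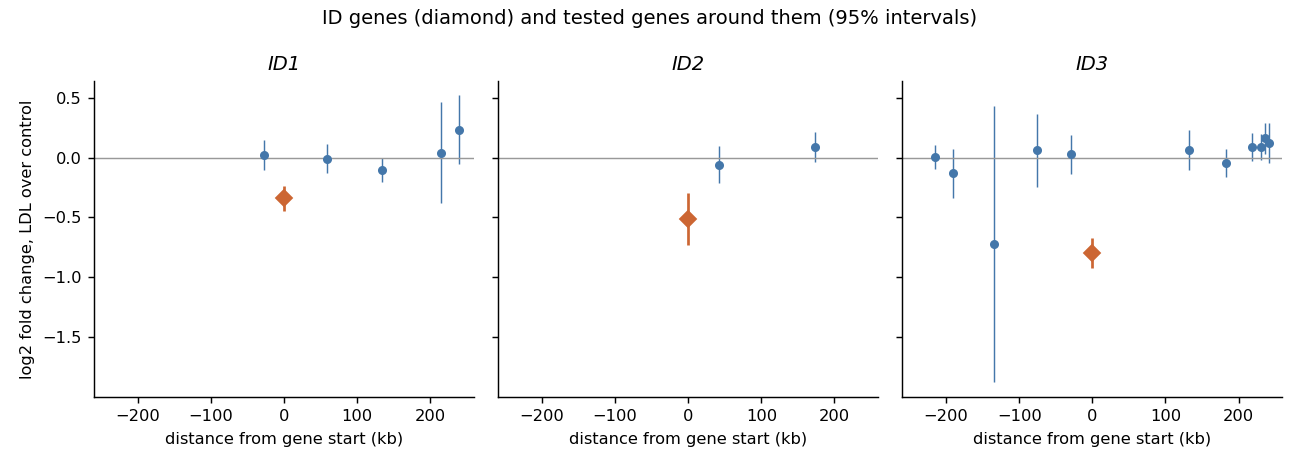
The orange diamond is ID1, ID2 or ID3 and blue points are tested genes within 250 kb; the horizontal axis is the distance from the start of the ID gene in kb, the vertical axis the log2 fold change of LDL over control with its 95% interval. The diamonds lie at -0.34, -0.51 and -0.80, and the genes around them lie near 0 apart from 1 low gene beside ID3 whose interval is wide.

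The genes whose profiles were most like those of the ID genes were found by the root mean square difference over the 8 samples of log2 CPM, each gene taken relative to its own control mean, among 9850 other genes with a mean of at least 10 CPM. The differences with LDL are part of this measure. For ID1 they were KRT80 (difference 0.076), PTPRJ (0.089) and EPHA4 (0.091), where the median gene was at 0.268. IGFN1 came first both for ID4 (0.063) and for ID2 (0.086). ID2 was next nearest to SYT15 (0.151) and SYT15B (0.168), 2 near-identical genes whose counts may be split between them. For ID4 the next were EPHA4 (0.127) and S1PR3 (0.132). ID3 had no profile as near, with SAMD11 at 0.192, KIT at 0.194 and PI16 at 0.257, the median gene being at 0.579. Of these 10 genes, PTPRJ, IGFN1 and KIT were called lower by edgeR over all genes (adjusted p = 0.023, 0.00818 and 0.00526, n = 4 each). Of all 15432 tested genes, 0.0389% were called lower. These were 6 genes, PTPRJ, IGFN1, KIT, ID1, ID3 and ID4. The 10 genes were chosen for likeness to genes that were lower with LDL, so their being lower is built in. Nothing is read from their calls.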

How the data were processed

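The authors deposited 1 table of gene counts and 1 of FPKM for the 8 samples, each with 22554 features. HISAT2, featureCounts, DESeq2 1.26.0 and the build GRCh38 appear in the submitters' processing notes. No source used here gives the annotation or whether strand was used in counting. The deposited counts are whole numbers, but 55.2% of values from 1 to 20 were even and 2557 features carry assembly names (MSTRG), so they were handled as estimated counts. They needed no rounding. The deposited FPKM values, scaled by the authors to length and depth, were used for levels between genes and in alternatives.

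Groups and replicate numbers came from the sample titles. Genes were tested with edgeR 4.0.16 (R 4.3.3) by the quasi-likelihood test with TMM, the default expression filter, robust fitting and group as the only term, with Benjamini-Hochberg adjustment over 15432 features. Log2 CPM used a prior count of 2. Positions came from GENCODE 29 and promoter windows from RefSeq tables of GRCh38.p14, in which all 7 genes were matched. A limit for a count of 0 is 3 counts of the library total and covers counting error only. Within each group, every pair of libraries differed beyond sampling noise (chi-square over its degrees of freedom 6.67 to 27.5).

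The members, the lists and the rule for named genes were chosen with earlier results of these data known. The rule takes the 7 genes; each called list member, or else the one with the smallest p and the one with the highest level; the nearest tested gene on each side of each ID gene; and the 3 most similar profiles per ID gene. SMAD6, ATOH8, NOG, EGR1, CDKN1A, CDKN2A, CDKN2B, CDH1, COL1A1, PTPRC, ITGAM, USP1 and RPS15, and MYOD1, MYOG, NEUROD1 and PTF1A as examples of genes at 0, were named after their values were seen. Alternatives were DESeq2 1.42.0, limma 3.58.1 (voom, and log2 FPKM with pseudocounts of 1 and 0.1, with a minimum mean of 0.5 FPKM or none), other scalings and filters, the replicate number as a block and each sample left out. Leaving out LDL samples 1 and 4 together was added after seeing the data.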

Additional observations from a re-analysis of the deposited data

Results flagged for a closer look

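A gap test for a sample far from the other 3 of its group was made in 84 groups of 4 samples over 42 named genes, of which chance flags about 1 in 20, and it marked 3. ID3 was at 130 CPM in control sample 2, against 149 to 152 CPM in the other controls; without that library its log2 fold change lay within the range given for single libraries left out. MYC was at 115 CPM in control sample 3, against 103 to 104 CPM in the other controls. RNF144A, the nearest tested gene before ID2, was at 33.1 CPM in control sample 2, against 29.2 to 29.3 CPM.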

How the results depend on the processing

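The number of the 7 genes called lower was 3 and stayed 3 with DESeq2 size factors, upper-quartile factors, no count filter and a minimum of 1 CPM in 4 samples. It was 4 with DESeq2 (47 genes called in the whole table, against 10), 2 with limma voom (8 genes), 1 (ID3) in each of the 3 FPKM fits (4, 2 and 3 genes), and 1 to 4 with each sample left out (2 to 149 genes). With the replicate number as a block it was 1, and the block called 2 genes in the whole table. Whether the numbers pair the samples is not stated. Deviations of same-numbered libraries correlated at -0.101, 0.060, 0.032 and -0.004, and those of libraries with different numbers at -0.057 to 0.066. Values this small cannot decide whether same-numbered samples shared a culture or batch. Without LDL samples 1 and 4 together it was 4. The cause of these shifts was not tested. The log2 fold changes of the ID genes and TCF3 moved by less than the spread between replicates under all 19 alternatives, as did that of TCF4, while that of TCF12 went from -0.06 to -0.17 without LDL samples 1 and 4. Calls among the genes of the 11 lists and among the neighbours stayed at 0 except without both of those samples, when 4 list genes (CAV1, CDH1, EGR1 and MYC) and 2 neighbours (RPL11 and RPS15) were called, of 248 calls in all. By CPM the order in control was ID1, TCF3, ID3, TCF12, ID4, TCF4 and ID2; in FPKM 3 of the 7 genes kept their place. Low counts widen the intervals: the log2 fold change of CDH1, under 1 CPM, had an SE of 0.844 with all 8 samples.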
